A study of Mus musculus with 6 samples.

Results

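Amino acid catabolism enzymes are described here as 43 genes picked by symbol, grouped by the amino acid they degrade, out of 52459 genes in the count table. All 43 symbols were found, and 42 had enough reads to be tested. Tdh, threonine dehydrogenase, was near 0 in every liver and was not tested. RNA was sequenced from the whole liver of 6 male C57BL6J mice of the Alb-Cre/Cas9 F1 generation, 3 given AAV8-U6-sgCtrl (mice 5.1, 7.1 and 7.2) and 3 given AAV8-U6-sgPrdx2 (mice 1.1, 1.3 and 3.2) by intravenous injection at 4 to 5 weeks of age. Both groups were injected 3 weeks later with the liver carcinogen diethylnitrosamine (DEN, 100 mg/kg), and 1 week after that were put for 6 months on CDA-HFD, a high-fat diet that lacks choline and supplies defined amino acids, and were sampled at 8 months. Cas9 depends on Cre, which the albumin promoter drives in hepatocytes, so other liver cells were not targeted, and islets of hepatocytes that the vector missed can remain. No group without DEN and CDA-HFD is part of the comparison, so values describe diseased livers only.

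The liver is the main site where surplus amino acids are broken down. A first enzyme commits each amino acid to degradation, often a transaminase that moves its nitrogen to glutamate or a dioxygenase that opens a ring, and later enzymes in cytosol and mitochondria turn the carbon skeleton into pyruvate, acetyl-CoA, ketone bodies or intermediates of the TCA cycle. Most of these enzymes are hallmarks of the differentiated hepatocyte, and several respond to glucocorticoids, glucagon and protein intake.

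The promoters of called enzymes that hold AGGTCA, the core motif of many nuclear receptors, are shown, since of the strings searched this one differed most, in percentage points, from its share in tested genes, a choice made after the values were seen. RefSeq promoters (GRCm38.p6) were matched for 34 of the 43 enzymes, and the 250 bases before the start were searched on both strands for AGGTCA, for the HNF4A string CAAAGTCCA, the CEBP string TTGCNNAA, the TATA box as TATAAA, the box CCAAT, the E-box CACGTG, the glucocorticoid receptor core TGTTCT, and for the longer motifs of HNF1 and NRF1, which no window of the enzymes held. None of these strings contains another. The exact HNF1 string was held by 0 of 11760 promoters of tested genes and that of NRF1 by 1.5%. Both are too rare for their absence from 34 windows to say anything about the enzymes. AGGTCA was held by 11 of the 34 windows (32.4%), against 11.1% of 11760 promoters of tested genes and 13.8% of all 27018 promoters. Of 8 called enzymes with a window, 3 held it. The 11 were those of Hgd, Tdo2, Haao, Acmsd, Got1, Got2, Prodh2, Bckdhb, Pcca, Aass and Uroc1. CCAAT was held by 17 of the 34 windows and by 36.0% of those of tested genes, and TATAAA by 17.6% and 7.2%. The windows of the enzymes had a median of 7.5 CpG, those of tested genes 15.0 and all promoters 6.0. Below, the motif is in capitals, 5′ to 3′ on the strand of the gene, and bases within an annotated exon are left out. The window of Haao, the only other called enzyme with the motif, had too short a stretch outside annotated exons and is not shown.
Prodh2, chr7:30493408-30493621, plus strand, motif starting 149 bases before the RefSeq start: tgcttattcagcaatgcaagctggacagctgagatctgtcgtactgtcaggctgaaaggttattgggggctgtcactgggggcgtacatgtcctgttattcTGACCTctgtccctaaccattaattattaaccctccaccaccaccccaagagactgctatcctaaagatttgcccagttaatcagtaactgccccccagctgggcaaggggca
Bckdhb, chr9:83924887-83925136, plus strand, motif starting 119 bases before the RefSeq start: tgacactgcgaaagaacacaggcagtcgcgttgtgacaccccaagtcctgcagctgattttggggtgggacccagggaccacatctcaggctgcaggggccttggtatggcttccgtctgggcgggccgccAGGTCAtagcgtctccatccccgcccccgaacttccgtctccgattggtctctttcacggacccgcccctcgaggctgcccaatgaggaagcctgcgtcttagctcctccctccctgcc
Such a match describes letters in a window and not a bound site, and no binding was measured.

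Total counts per liver ran from 37462102 to 56865293. Levels are given in CPM, counts scaled to a common library total after TMM normalization. TMM centers the typical gene on no difference. A log2 fold change is the sgPrdx2 minus the sgCtrl value. Counts of any pair of libraries differed beyond sampling noise, with a chi-square per degree of freedom of 35.3 or more. Albumin, which defines the tissue, took 6.61% to 7.01% of counts in sgCtrl and 9.28% to 11.3% in sgPrdx2 livers. Prdx2 RNA was at 109, 117 and 132 CPM in sgCtrl livers 5.1, 7.1 and 7.2 and at 99.0, 112 and 149 CPM in sgPrdx2 livers 1.1, 1.3 and 3.2, so the groups overlapped. Small insertions and deletions need not lower an RNA, and the labels could not be checked from it.

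Relative to the typical gene, the median log2 fold change of every amino acid group was above 0. On that scale, enzymes of tyrosine, tryptophan, hydroxyproline, the branched-chain amino acids, alanine and cysteine passed the test as higher in sgPrdx2 livers. Relative to hepatocyte markers, by contrast, only the medians of the proline and hydroxyproline group and of histidine were above 0. Albumin alone made up 71.2% to 76.8% of the sum of these markers in each liver. Directions below are those under TMM, and the values relative to hepatocyte markers are given last. Of 42 tested, 10 passed the test as higher (edgeR's quasi-likelihood test, Benjamini-Hochberg adjusted p under 0.05) and 0 as lower, where 1.79% of all 17032 tested genes passed as higher and 1.54% as lower (3.33% in all). The 10 were Hpd, Fah and Gstz1 of tyrosine, Afmid and Haao of tryptophan, the alanine transaminase Gpt, the hydroxyproline dehydrogenase Prodh2, Bckdhb and Mccc2 of the branched-chain amino acids, and Cdo1 of cysteine, at log2 fold changes from 0.71 to 1.64 and adjusted p from 0.0313 to 0.0486. At an unadjusted p under 0.05, 30 were higher and 0 lower, against 13% and 11.9% of all genes. The median log2 fold change was 0.79 over the 42 enzymes and -0.017 over all genes, and 41 of the 42 were above 0 (48.3% of all genes). Every sgPrdx2 liver exceeded every sgCtrl liver for 30 enzymes (16.7% of all genes), every one was below for 1 (Csad, 17.5% of all genes), and the groups overlapped for 11. The 20 that were higher without overlap and did not pass had adjusted p from 0.0530 to 0.214. Scaling to hepatocyte markers in place of TMM turned the median to -0.17, with 1 enzyme called higher and 4 lower. Under that scaling 38 of all 17032 genes were called higher and 13353 lower. DESeq2 called 26 enzymes higher, and 1212 genes of the whole table. Fits without sgCtrl liver 5.1 or 7.2, or without sgPrdx2 liver 1.1 or 1.3, called 0 enzymes and 0 genes of the whole table. In these fits 25 to 34 enzymes had an unadjusted p under 0.05. All were higher except 1 of the 25 in the fit without sgPrdx2 liver 1.1. The share of all genes at that p in these fits was not counted. The fit without sgCtrl liver 7.1 called 6 enzymes and 216 genes of the whole table higher.

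**Figure D1:**
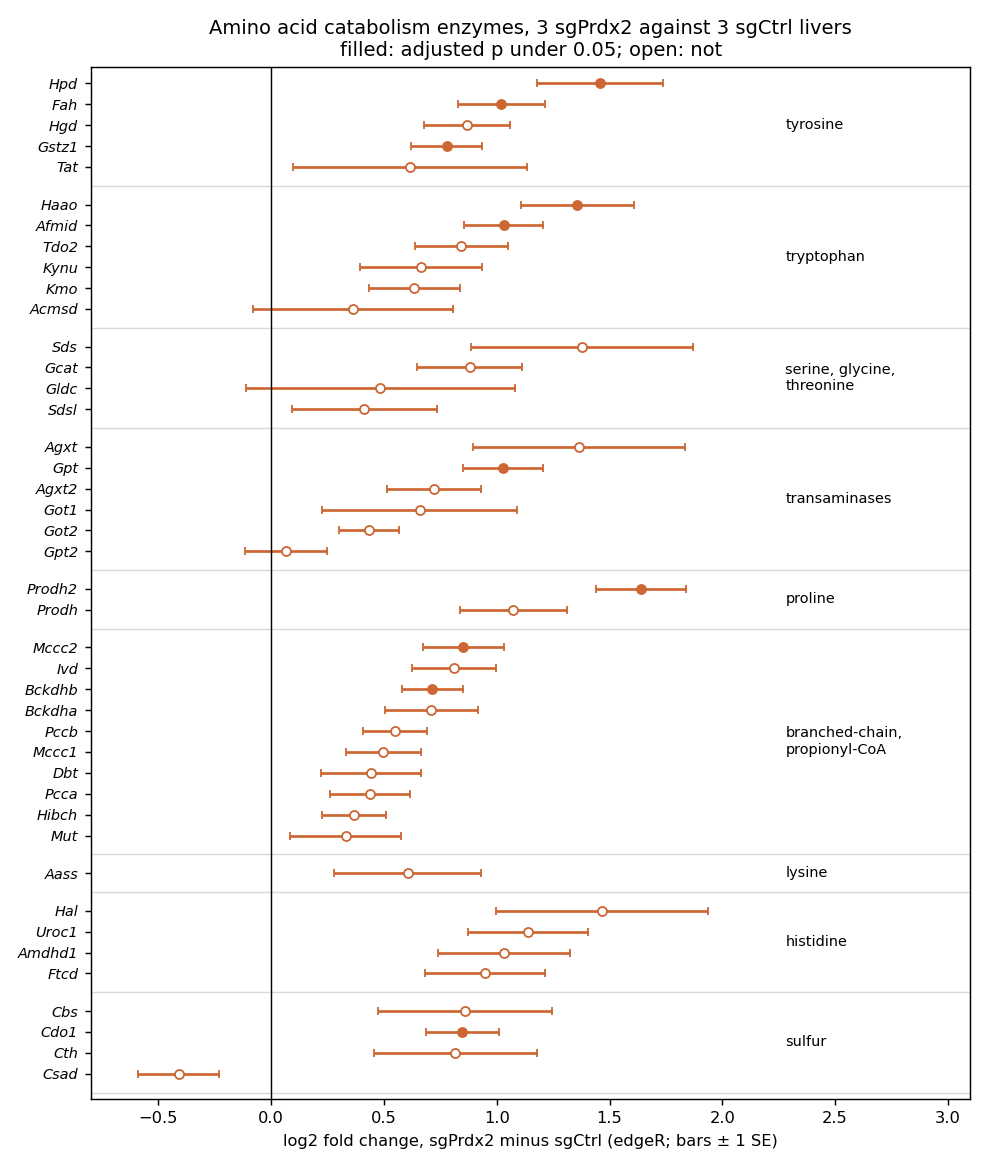
Log2 fold change of each of the 42 tested enzymes (x axis, sgPrdx2 minus sgCtrl under TMM, bars ± 1 SE), grouped by amino acid, with filled points for the 10 enzymes with an adjusted p under 0.05. All but Csad lie to the right of 0, from Gpt2 at 0.066 to Prodh2 at 1.64. With counts scaled to hepatocyte markers, 30 of the 42 lie below 0 and the median of all genes is -0.98.

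Of the 5 tyrosine enzymes, 3 passed as higher, and the median log2 fold change was 0.87. Hpd, the dioxygenase that makes homogentisate, was at 490, 811 and 938 CPM in sgCtrl livers 5.1, 7.1 and 7.2 and at 1787, 1745 and 2614 CPM in sgPrdx2 livers 1.1, 1.3 and 3.2. The lowest sgPrdx2 liver was well above the highest sgCtrl liver, and Hpd rose by a log2 fold change of 1.46 (SE 0.28, adjusted p = 0.0430), or 2.75-fold. Fah, which performs the last step and releases fumarate and acetoacetate, was at 342, 417 and 421 CPM in sgCtrl and 717, 679 and 996 CPM in sgPrdx2 livers. These groups did not overlap either, and Fah rose by 1.02 on the log2 scale (SE 0.19, adjusted p = 0.0416). Gstz1, the isomerase just before Fah, was at 376, 490 and 457 CPM against 781, 692 and 796 CPM, with no overlap and a log2 fold change of 0.78 (SE 0.16, adjusted p = 0.0466). Hgd, which opens the ring of homogentisate, stood between Hpd and Gstz1 in the pathway and in log2 fold change, at 0.87, but did not pass (adjusted p = 0.0530), with 263 to 403 CPM in sgCtrl and 579 to 694 CPM in sgPrdx2 livers. Tat, the transaminase that starts the pathway, behaved less evenly, at 161, 480 and 791 CPM in sgCtrl and 522, 1055 and 614 CPM in sgPrdx2 livers. Liver 5.1 was the lowest and the groups overlapped, so its log2 fold change of 0.61 had an SE of 0.52 and an adjusted p of 0.489. The genes that passed lie at chr5:123171807-123182727 (Hpd, minus strand), chr7:84585159-84606722 (Fah, minus strand) and chr12:87147165-87164723 (Gstz1, plus strand) in GRCm38. Of the exon bases of Gstz1, 12.2% overlap models on the other strand, and whether the counting used strand is not given.

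All 6 tryptophan enzymes had log2 fold changes above 0, with a median of 0.75, and 2 passed. Haao, the dioxygenase that makes the precursor of quinolinate, was at 102, 175 and 111 CPM in sgCtrl and 339, 260 and 394 CPM in sgPrdx2 livers. Liver 7.1 was the highest of the sgCtrl livers and still below all sgPrdx2 livers, and Haao (chr17:83831156-83847963, minus strand) rose by 1.36 on the log2 scale (SE 0.25, adjusted p = 0.0409). Afmid, the formamidase that yields kynurenine, was the lowest of the 42 tested enzymes per length, at 1.82 CPM per kb of exon in sgCtrl and 3.72 in sgPrdx2 livers. Its levels were 5.89, 6.94 and 6.49 CPM in sgCtrl and 15.8, 12.9 and 10.8 CPM in sgPrdx2 livers, which did not overlap, and it rose by 1.03 on the log2 scale (SE 0.18, adjusted p = 0.0385). Of the exon bases of Afmid (chr11:117825924-117839908, plus strand), 44.25% are shared with the model Gm20708 on the same strand, so its count is uncertain. Tdo2, which opens the indole ring and commits tryptophan to the pathway, was at 507 to 685 CPM in sgCtrl and 795 to 1196 CPM in sgPrdx2 livers, with no overlap and a log2 fold change of 0.84 (adjusted p = 0.0650). Kmo (log2 fold change 0.63, adjusted p = 0.114) and Kynu (log2 fold change 0.66, adjusted p = 0.181), the hydroxylase and hydrolase that act on kynurenine and its product, also did not overlap between groups. Acmsd, which diverts the pathway away from NAD synthesis, was at 6.85, 13.3 and 29.0 CPM in sgCtrl and 17.6, 24.2 and 21.5 CPM in sgPrdx2 livers. The sgCtrl livers spanned the whole range of the sgPrdx2 livers, and its log2 fold change of 0.36 (adjusted p = 0.639) was the smallest of this group.

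Proline and hydroxyproline degradation had the highest median log2 fold change of the amino acid groups, 1.36 over 2 enzymes. Prodh2, the mitochondrial hydroxyproline dehydrogenase whose promoter is printed above (gene at chr7:30493622-30513402), had the largest log2 fold change of all 42, 1.64 (SE 0.20, adjusted p = 0.0313), or 3.12-fold. Its levels were 69.8, 94.8 and 73.3 CPM in sgCtrl and 235, 204 and 302 CPM in sgPrdx2 livers, so that the groups were far apart. Prodh, which oxidizes proline itself, was at 119, 109 and 80.0 CPM in sgCtrl and 202, 164 and 283 CPM in sgPrdx2 livers. Its log2 fold change of 1.07 (SE 0.24) did not pass (adjusted p = 0.0541). Here liver 7.2 and not liver 5.1 was the lowest sgCtrl liver. Further along these routes, Aldh4a1, which oxidizes the shared product of proline, and Hoga1, the aldolase that ends hydroxyproline breakdown, rose by 0.91 on the log2 scale (adjusted p = 0.0396) and 0.95 (adjusted p = 0.0358). The count of Aldh4a1 is uncertain, since 32.5% of its exon bases are shared with the model Gm21969 on the same strand.

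**Figure D2:**
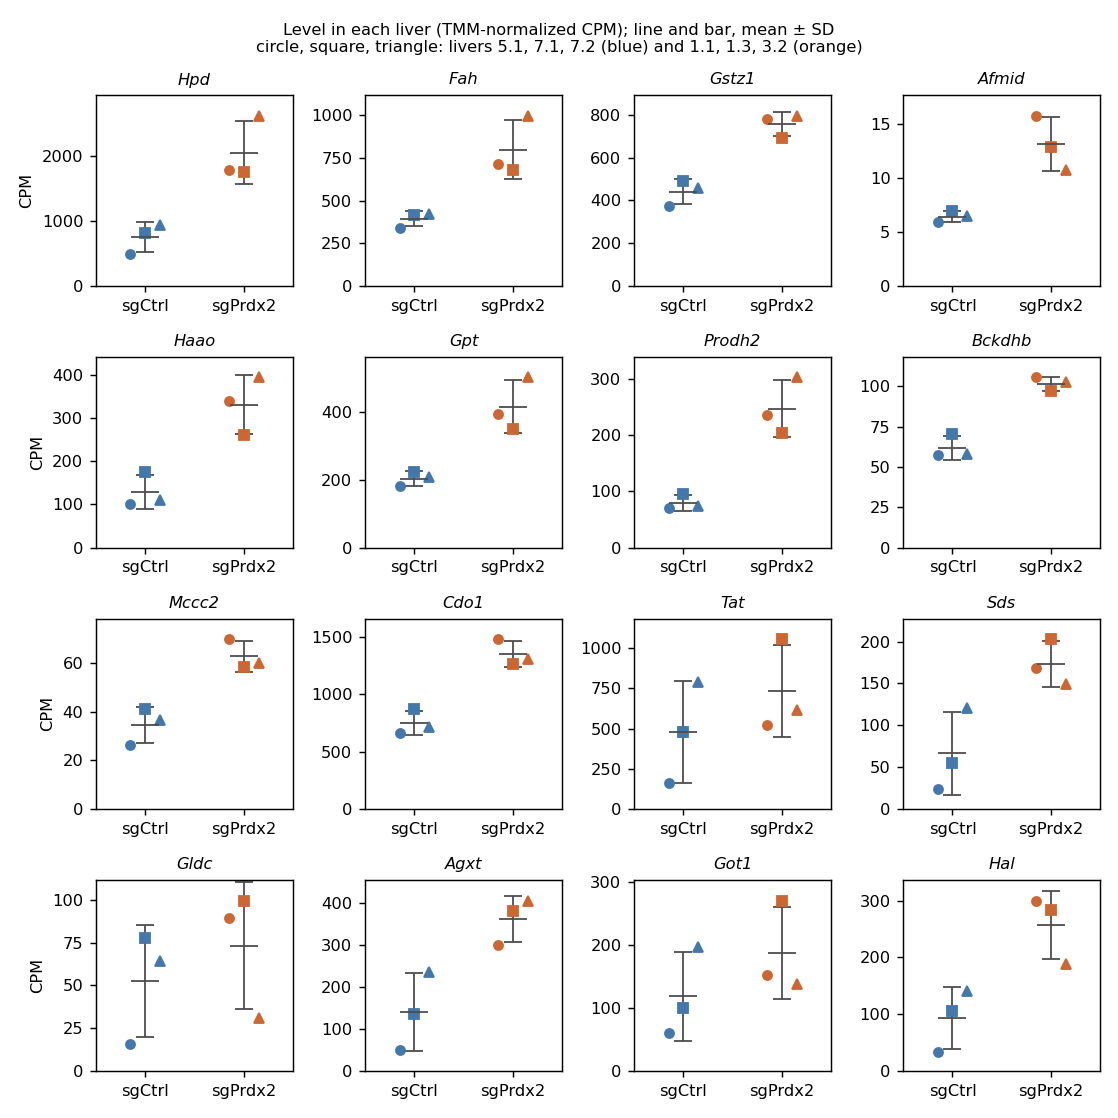
Level of 16 enzymes in each liver (y axis, TMM-normalized CPM, starting at 0; line and bar, mean ± SD of 3 livers), with the 10 enzymes that passed the test first and 6 with a wide spread after them. The groups are apart in the panels of the 10, as Prodh2 at 69.8 to 94.8 against 204 to 302 CPM shows, while Tat, Gldc and Got1 overlap.

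The 6 transaminases had a median log2 fold change of 0.69, and 1 passed. Gpt, the cytosolic alanine transaminase, was at 181, 222 and 209 CPM in sgCtrl and 394, 352 and 503 CPM in sgPrdx2 livers, and rose by 1.03 on the log2 scale (SE 0.18, adjusted p = 0.0394; chr15:76695716-76699686, plus strand). Gpt2, its mitochondrial counterpart, was at 366, 520 and 438 CPM in sgCtrl and 473, 515 and 398 CPM in sgPrdx2 livers. The groups of Gpt2 overlapped almost fully, with a log2 fold change of 0.066 (SE 0.18, adjusted p = 0.843). The log2 ratio of Gpt to Gpt2 counts within a liver, which no scaling changes, was -1.01, -1.23 and -1.07 in sgCtrl livers and -0.26, -0.55 and 0.34 in sgPrdx2 livers. It was higher in all 3 sgPrdx2 livers, by 0.94 on average (exact permutation test, two-sided, p = 0.1 and 0.2 adjusted over 6 ratios; 3 livers against 3 allow no smaller p). The aspartate transaminases Got1 (cytosol) and Got2 (mitochondria) did not pass. Got1 was at 59.6, 99.0 and 196 CPM in sgCtrl and 152, 270 and 137 CPM in sgPrdx2 livers, which overlapped (log2 fold change 0.66, adjusted p = 0.379). Got2 was at 179, 192 and 204 CPM in sgCtrl and 279, 246 and 251 CPM in sgPrdx2 livers, a smaller but more even difference without overlap (log2 fold change 0.43, SE 0.13, adjusted p = 0.104). Agxt, which clears glyoxylate with alanine as donor, was at 50.4, 137 and 236 CPM in sgCtrl and 301, 382 and 407 CPM in sgPrdx2 livers. Its sgCtrl livers differed widely, the groups did not overlap, and its log2 fold change of 1.36 did not pass (SE 0.47, adjusted p = 0.133). Agxt2, a mitochondrial enzyme of related function, was at 125, 212 and 146 CPM in sgCtrl and 289, 260 and 247 CPM in sgPrdx2 livers, also without overlap (log2 fold change 0.72, adjusted p = 0.0925).

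**Figure D3:**
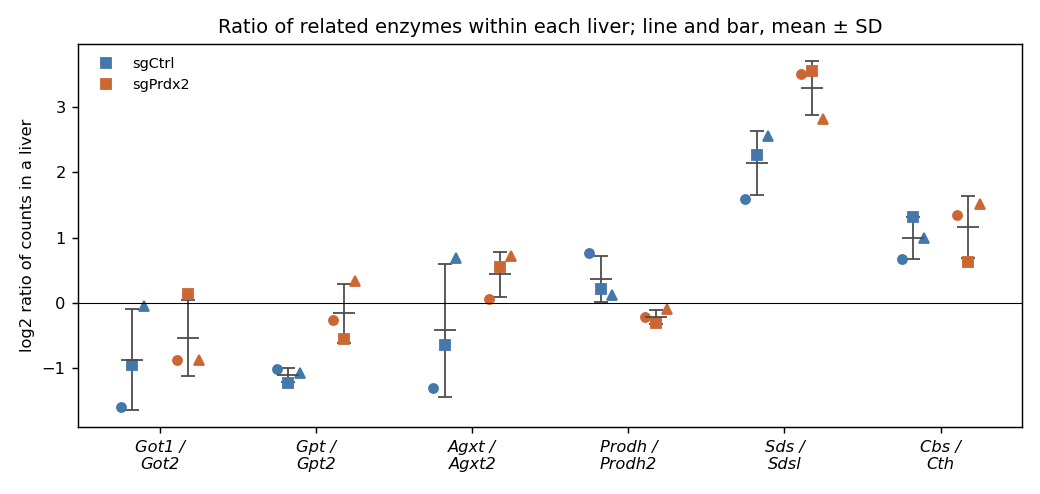
Log2 ratio of the counts of 6 pairs of related enzymes within each liver (y axis; each point 1 liver, line and bar mean ± SD of 3). The groups are apart for Gpt to Gpt2, Prodh to Prodh2 and Sds to Sdsl, and overlap for the other 3 pairs.

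The 5 other ratios gave no lower p. For Prodh to Prodh2 the difference was -0.58 and for Sds to Sdsl 1.15 on the log2 scale, both without overlap between groups (p = 0.1, adjusted 0.2, exact permutation tests). For Agxt to Agxt2 the difference was 0.86 (exact permutation p = 0.3, adjusted 0.45), for Got1 to Got2 0.33 (exact permutation p = 0.5, adjusted 0.6) and for Cbs to Cth 0.16 (exact permutation p = 0.7, adjusted 0.7). These overlapped between the groups. The difference for Got1 to Got2 was -0.031 without sgCtrl liver 5.1 and -0.0051 without sgPrdx2 liver 1.3, and that for Cbs to Cth was -0.012 without sgPrdx2 liver 3.2.

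In the branched-chain group, which includes the propionyl-CoA route that takes up carbon from isoleucine and valine, all 10 enzymes had log2 fold changes above 0 with a median of 0.52, and 2 passed. Bckdhb, a subunit of the E1 component of the dehydrogenase that commits branched-chain keto acids to oxidation, was at 57.2, 70.7 and 58.0 CPM in sgCtrl and 106, 96.9 and 102 CPM in sgPrdx2 livers. Livers of a group lay close together and Bckdhb (chr9:83925145-84124240) rose by 0.71 on the log2 scale (SE 0.14, adjusted p = 0.0423). Mccc2, a subunit of the leucine enzyme methylcrotonyl-CoA carboxylase, was at 26.5, 40.9 and 36.6 CPM in sgCtrl and 69.8, 58.4 and 59.8 CPM in sgPrdx2 livers. It rose by 0.85 on the log2 scale (SE 0.18, adjusted p = 0.0486; chr13:99948530-100015639, minus strand), with no overlap. Bckdha, the other E1 subunit, had the same fold change as Bckdhb, 0.71, with an SE of 0.21 and an adjusted p of 0.0937, and 61.7% of its exon bases overlap B3gnt8 on the other strand. Ivd, the next leucine enzyme, was at 85.5 to 139 CPM in sgCtrl and 191 to 203 CPM in sgPrdx2 livers (log2 fold change 0.81, adjusted p = 0.0575). For Pccb and Pcca, the subunits of propionyl-CoA carboxylase, the log2 fold changes were 0.55 (adjusted p = 0.0709) and 0.44 (adjusted p = 0.181). Mccc1 (log2 fold change 0.50, adjusted p = 0.127), Dbt, the E2 component (log2 fold change 0.44, adjusted p = 0.256), and Hibch of valine (log2 fold change 0.37, adjusted p = 0.162) did not pass either. Mut, the methylmalonyl-CoA mutase, was at 69.2, 96.7 and 71.3 CPM in sgCtrl and 121, 111 and 66.1 CPM in sgPrdx2 livers. Liver 3.2 was the lowest of all 6 for Mut, and the log2 fold change was 0.33 (SE 0.25, adjusted p = 0.432).

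None of the 4 histidine enzymes passed, though all 4 were higher in every sgPrdx2 than in every sgCtrl liver, at a median log2 fold change of 1.09. Hal, the ammonia lyase that starts the pathway, was at 32.6, 106 and 141 CPM in sgCtrl and 300.2, 283 and 188 CPM in sgPrdx2 livers (log2 fold change 1.47, SE 0.47, adjusted p = 0.116). Uroc1, the urocanate hydratase, had the smallest p of the group, at 109, 225 and 174 CPM in sgCtrl and 440.1, 359 and 319 CPM in sgPrdx2 livers (log2 fold change 1.14, SE 0.27, adjusted p = 0.0585). Liver 5.1 was the lowest for both. Amdhd1, which opens the imidazolone ring, stood at 1.03 on the log2 scale (adjusted p = 0.0878). Ftcd, which hands the last one-carbon unit to folate, was at 120, 221 and 264 CPM in sgCtrl and 399, 389.9 and 378 CPM in sgPrdx2 livers (log2 fold change 0.95, adjusted p = 0.0873). Its sgPrdx2 livers agreed closely while its sgCtrl livers did not. At an unadjusted p under 0.05, all 4 were higher.

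Of the sulfur amino acid enzymes, Cdo1 passed and Csad was the exception of the whole list. Cdo1, the dioxygenase that commits cysteine to oxidation, was at 665, 871 and 720 CPM in sgCtrl and 1483, 1268 and 1310 CPM in sgPrdx2 livers, and rose by 0.85 on the log2 scale (SE 0.16, adjusted p = 0.0441). Per kb of exon it was the highest of the tested enzymes in sgCtrl livers, at 457 CPM per kb, and second to Hpd in sgPrdx2 livers, at 823 against 963. Csad, which decarboxylates the product of Cdo1 toward taurine, was at 94.2, 85.9 and 98.5 CPM in sgCtrl and 85.1, 54.3 and 70.3 CPM in sgPrdx2 livers. All 3 sgPrdx2 livers were lower, liver 1.1 only just, and the log2 fold change of -0.41 (SE 0.18) did not pass (adjusted p = 0.203). Without a composition factor, that is with library size alone, Csad passed as lower, as did 3041 of all 17032 tested genes. Cbs, the entry to transsulfuration, was at 129, 385 and 425 CPM in sgCtrl and 581, 556 and 566 CPM in sgPrdx2 livers (log2 fold change 0.86, SE 0.38, adjusted p = 0.214). Cth, the enzyme after it, was at 81.1, 154 and 212 CPM in sgCtrl and 227, 362 and 198 CPM in sgPrdx2 livers, which overlapped (log2 fold change 0.82, adjusted p = 0.209). Liver 5.1 was the lowest for both Cbs and Cth.

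For serine, glycine and threonine, none of the 4 tested enzymes passed, and the median log2 fold change was 0.68. Sds, the dehydratase that turns serine into pyruvate, was at 24.2, 55.2 and 121 CPM in sgCtrl and 168, 203 and 149 CPM in sgPrdx2 livers. The groups did not overlap, but the sgCtrl livers spanned over 3-fold, and a log2 fold change of 1.38 had an SE of 0.49 (adjusted p = 0.142). Of the exon bases of Sds, 29.6% overlap Plbd2 and Gm15690 on the other strand. Sdsl, a related enzyme, was at 8.00, 11.5 and 20.6 CPM in sgCtrl and 14.8, 17.4 and 21.2 CPM in sgPrdx2 livers, which overlapped (log2 fold change 0.41, adjusted p = 0.455). Gcat, which splits the product of threonine dehydrogenase, had the smallest p of these, at 29.3, 46.2 and 47.4 CPM in sgCtrl and 68.9, 62.3 and 95.1 CPM in sgPrdx2 livers (log2 fold change 0.88, SE 0.23, adjusted p = 0.0756). A second gene model of the same name covers 47.5% of its exon bases, so that value is uncertain. Gldc, the decarboxylase of the glycine cleavage system, was uneven in both groups, at 15.6, 77.9 and 64.1 CPM in sgCtrl and 89.8, 99.7 and 30.7 CPM in sgPrdx2 livers (log2 fold change 0.48, SE 0.60, adjusted p = 0.643). Tdh reached at most 0.590 CPM, in liver 7.2. Aass, the single lysine enzyme of the list, which starts the mitochondrial route, was at 58.2, 123 and 133 CPM in sgCtrl and 185, 181 and 113 CPM in sgPrdx2 livers. Its groups overlapped through liver 3.2 (log2 fold change 0.61, adjusted p = 0.287).

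Liver 5.1 was the lowest of all 6 livers for 36 of the 42 enzymes, and for 18.5% of all genes tested, while no sgPrdx2 liver was the lowest for more than 1. The coefficient of variation had a median over the enzymes of 22.5% in sgCtrl and 16.1% in sgPrdx2 livers, and was larger in sgCtrl livers for 31 of 42. Over all genes tested the medians were 12.6% and 17.7%, and the coefficient was larger in sgCtrl livers for 36.6%. These coefficients describe 3 livers a group and were not tested. For 8 enzymes (Tat, Acmsd, Sds, Gldc, Got1, Agxt, Hal and Cbs) the highest sgCtrl liver was at least 3 times the lowest. None of these 8 passed the test. Without liver 5.1 the median log2 fold change over the 42 enzymes was 0.62, and 39 were above 0. By compartment, the median log2 fold change was 0.86 for the 22 cytosolic enzymes and 0.61 for the 19 mitochondrial ones that were tested. It was 0.78 for the 12 tested entry enzymes and 0.79 for the 30 later ones.

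Further genes of the same pathways, 45 in number, gave a like picture. Of 42 tested, 12 passed as higher and 0 as lower, all 42 had log2 fold changes above 0 and the median was 0.70. Pipox, the peroxisomal oxidase of sarcosine and pipecolate, had the smallest p, at 81.1, 92.7 and 94.7 CPM in sgCtrl and 238, 187 and 221 CPM in sgPrdx2 livers. The groups were far apart, and Pipox rose by 1.27 on the log2 scale (SE 0.15, adjusted p = 0.0313). Sardh, the mitochondrial sarcosine dehydrogenase, rose by 1.18 on the log2 scale (adjusted p = 0.0394), and of the lysine and tryptophan route Gcdh rose 1.99-fold (adjusted p = 0.0383), Aadat by 1.09 on the log2 scale (adjusted p = 0.0448) and Aldh7a1 by 1.08 (adjusted p = 0.0457). Grhpr, the glyoxylate reductase, rose by 0.97 on the log2 scale (adjusted p = 0.0448) and Shmt2, the mitochondrial serine hydroxymethyltransferase, by 0.83 (adjusted p = 0.0466). Sqor, which oxidizes sulfide, rose by 0.76 on the log2 scale (adjusted p = 0.0409), Mcee, the epimerase before Mut, by 0.69 (adjusted p = 0.0439) and Acad8 of valine by 0.60 (adjusted p = 0.0466). Bcat1, Gadl1 and Dao were near 0 and not tested. The fits without sgCtrl liver 5.1 or 7.2 or sgPrdx2 liver 1.1 or 1.3 called 0 of these genes too.

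Genes of amino acid synthesis and transport were divided. Of 20 tested, 2 passed as higher and 2 as lower, where 1.79% and 1.54% of all genes did. In this list 13 had log2 fold changes below 0, and the median was -0.13. Slc43a1, a transporter of large neutral amino acids, was at 6.26, 6.32 and 7.36 CPM in sgCtrl and 14.0, 15.6 and 17.01 CPM in sgPrdx2 livers, and rose by 1.22 on the log2 scale (SE 0.14, adjusted p = 0.0313). Slc38a3, a glutamine transporter, rose 2.14-fold (adjusted p = 0.0328). Aldh18a1, which makes the precursor of proline from glutamate, went the other way from Prodh and Prodh2. It was at 11.5, 11.1 and 15.0 CPM in sgCtrl and 5.90, 6.34 and 6.23 CPM in sgPrdx2 livers, and fell by 1.02 on the log2 scale (SE 0.16, adjusted p = 0.0358). Slc7a11, which imports cystine, was at 9.46, 5.72 and 4.66 CPM in sgCtrl and 2.37, 2.77 and 2.83 CPM in sgPrdx2 livers, and fell by 1.31 on the log2 scale (SE 0.28, adjusted p = 0.0491). With library size alone 7 of the 20 passed as lower, as did 3041 of all 17032 tested genes. None of the 4 calls was left without sgCtrl liver 5.1 or 7.2 or sgPrdx2 liver 1.1 or 1.3, and 1 gene passed as lower without sgCtrl liver 7.1 or sgPrdx2 liver 3.2.

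**Figure D4:**
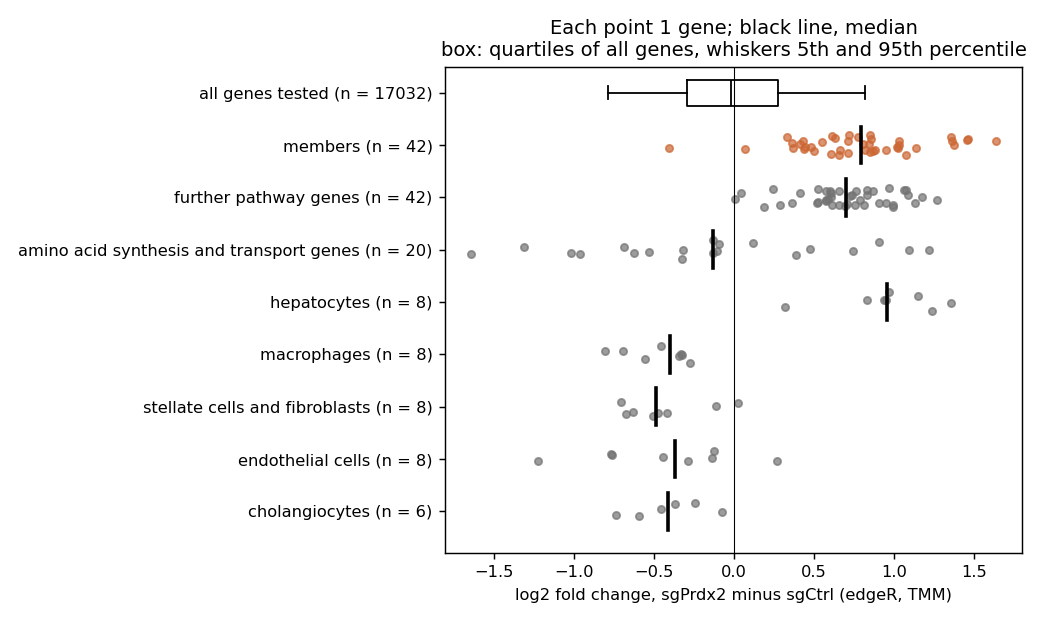
Log2 fold change under TMM (x axis) of each tested gene of 8 lists, 1 point a gene with the median as a black line, beside a box of all 17032 tested genes (quartiles, with whiskers at the 5th and 95th percentiles). The medians of the enzymes (0.79), of the further pathway genes (0.70) and of hepatocyte markers (0.96) lie to the right of 0. Those of macrophage, stellate, endothelial and cholangiocyte markers lie to the left. Scaling to hepatocyte markers moves the enzymes to a median of -0.17 and all genes to -0.98.

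Hepatocyte markers moved with the enzymes. In whole liver, fewer cells of a type and less RNA per cell cannot be told apart. All 8 hepatocyte markers had log2 fold changes above 0, with a median of 0.96, and 5 of the 8 (Ttr, Serpina1c, Apoa1, Alb and Fgb) passed as higher. Of the exon bases of Serpina1c, 31.5% overlap a model on the other strand. Their summed level was 77204 to 84808 CPM in sgCtrl and 132524 to 179729 CPM in sgPrdx2 livers. Macrophage markers were below 0 for 8 of 8 and summed to 2802 to 3176 CPM in sgCtrl and 1984 to 2727 CPM in sgPrdx2 livers. The smallest p were those of Adgre1, Csf1r, Cd68 and Lyz2, none of which passed. For 6 of the 8 macrophage markers the groups overlapped. Lyz2, the largest part of the sum, was among them, at 2057, 2002 and 1976 CPM in sgCtrl and 1335, 1387 and 2085 CPM in sgPrdx2 livers. Markers of stellate cells and fibroblasts were below 0 for 7 of 8 and summed to 2203 to 2553 against 1614 to 1672 CPM. They were led by Col1a2, Col3a1, Lum and Dcn, none of which passed, and for 3 of the 8 the groups overlapped. Endothelial markers were below 0 for 7 of 8, at 413 to 437 against 319 to 410.3 CPM, and Pecam1 among them fell by 0.77 on the log2 scale (adjusted p = 0.0423), ahead of Lyve1, Cdh5 and Ptprb, which did not pass. Cholangiocyte markers were below 0 for 6 of 6, at 1630 to 1858 against 1217 to 1393 CPM. Spp1, Epcam, Cftr and Krt19 led them, and none of these passed. Spp1 made up most of these sums, at 1534, 1492 and 1707 CPM in sgCtrl and 1112, 1258 and 1080 CPM in sgPrdx2 livers. For 3 of the 6 markers the groups overlapped. Krt19 was among them, at 94.2 CPM in sgCtrl liver 5.1 and at 32.3 and 38.4 CPM in sgCtrl livers 7.1 and 7.2. The sums of lymphocyte markers (5 of 7 below 0, Cd8a among them, which passed as lower, and Cd3e and Ms4a1, which did not pass) and of neutrophil markers (3 of 4 tested below 0, namely Csf3r, S100a8 and S100a9, with Retnlg above 0) overlapped between groups, and Ly6g was at or near 0 in every liver. The part of these markers in the enzyme levels was not tested.

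**Figure D5:**
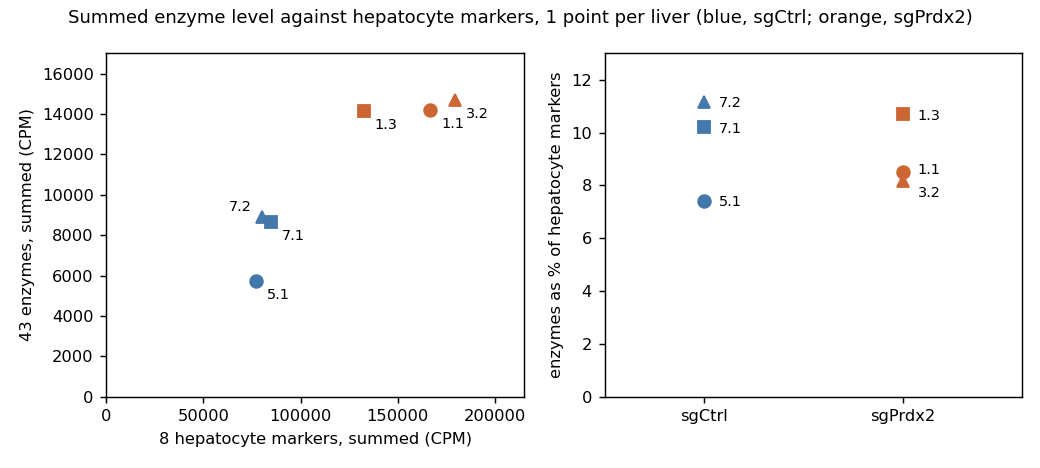
Left, summed level of the 43 enzymes (y axis, CPM) against that of 8 hepatocyte markers (x axis, CPM), 1 point per liver. Right, the enzymes as a percentage of the markers by group, from 7.41 to 11.2 in sgCtrl and from 8.18 to 10.7 in sgPrdx2 livers, which overlap.

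Summed over the 43 enzymes, sgCtrl livers 5.1, 7.1 and 7.2 held 5721, 8644 and 8912 CPM and sgPrdx2 livers 1.1, 1.3 and 3.2 held 14193, 14160 and 14693 CPM. The sums did not overlap, and liver 5.1 was again the lowest. As a percentage of the hepatocyte markers, the same sums were 7.41, 10.2 and 11.2 in sgCtrl and 8.51, 10.7 and 8.18 in sgPrdx2 livers, so that the groups overlapped. Albumin made up 71.2% to 76.8% of the marker sum in each liver. Leaving albumin out of the markers gave 31.9, 38.9 and 42.3 against 36.4, 40.6 and 28.4, which overlapped as well. The scaling below uses the sum with albumin, and a scaling without it was not run. With all counts scaled to the hepatocyte markers, 12 enzymes were above 0 and 30 below, Prodh2 passed as higher, and Got2, Gpt2, Hibch and Csad passed as lower. Of all 17032 genes, 38 passed as higher and 13353 as lower under this scaling. This scaling moved the median of all genes to -0.98, and the median of the enzymes relative to it was 0.81, as under TMM. A change of scaling shifts all genes by nearly the same amount, so that difference could hardly change. By amino acid, the medians under it stayed above 0 for proline and hydroxyproline (0.36) and histidine (0.14). They were below 0 for tyrosine (-0.10), sulfur amino acids (-0.10), tryptophan (-0.19), transaminases (-0.24), serine, glycine and threonine (-0.25), lysine (-0.32) and branched-chain amino acids (-0.44). For the same reason the order of the amino acid groups was that under TMM, and it is no separate result. It ran from proline and hydroxyproline at the top to the branched-chain enzymes at the bottom.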

How the data were processed

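The authors deposited whole-number read counts per gene for 6 livers, without normalization. The submitters' processing notes name HISAT2, HTSeq, DESeq2 and GRCm38, while annotation and strand setting are not given in the sources used here. A second deposited table holds the authors' own DESeq2 comparison and was not used.

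Counts were analyzed in R 4.3.3 with edgeR 4.0.16: filterByExpr (minimum count 10) left 17032 genes, TMM normalization was applied, and 3 sgPrdx2 were set against 3 sgCtrl livers in the quasi-likelihood test, with Benjamini-Hochberg adjustment over all genes tested and a threshold of 0.05. Each liver is a separate mouse, and no batch or pairing is named. Ratios of enzymes were taken after adding 0.5 counts and compared by two-sided exact permutation tests. Total counts of 37462102 to 56865293 keep counting error small for genes with many reads. It is larger for genes with few reads and was not separated from the spread between livers. Afmid had 258, 312 and 341 counts in sgCtrl livers, and Slc7a11 had 104, 150 and 92 in sgPrdx2 livers. Exon lengths, positions and overlaps came from the GENCODE annotation of GRCm38, and the authors may have counted on another. The fit was tested on simulated counts in which as many genes were raised as lowered, each by more than any enzyme differed here. That simulation says nothing about the choice of scaling.

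Enzymes and gene lists were chosen with earlier results of these data known. Values in every liver are given for enzymes that passed, for those with the smallest p and the lowest fold change in each amino acid group, and for both enzymes of each ratio. Of the other lists, the 4 genes with the smallest p and those that passed are named. The result of 1 marker gene is not reported here. Alternatives were RLE, upper-quartile, library-size, reference-gene and hepatocyte-marker scaling, DESeq2 1.42.0, limma-voom (limma 3.58.1), other filters and thresholds, and leaving out each liver.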

Additional observations from a re-analysis of the deposited data

How the results depend on the processing

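The count of 10 enzymes called higher was 10 with RLE and upper-quartile normalization, limma-voom and a filter of 10 counts in every liver, 5 with library size alone, 16 with reference gene scaling, 1 with hepatocyte marker scaling, 26 with DESeq2, 19 with no filter, 21 at an adjusted p under 0.1 and 0 at one under 0.01, and 0 to 7 with 1 liver left out. Enzymes called lower were 1 with library size alone, 4 with hepatocyte marker scaling and 0 otherwise. Of the further pathway genes, 20 were called higher with reference gene scaling, 0 with hepatocyte marker scaling (6 lower), 29 with DESeq2, 21 with no filter, 26 at an adjusted p under 0.1 and 0 at one under 0.01, and 0 to 10 with 1 liver left out. Of the synthesis and transport genes, hepatocyte marker scaling called 0 higher and 15 lower, DESeq2 4 higher and 5 lower, library size alone 7 lower, reference gene scaling and limma-voom 1 lower each, an adjusted p under 0.1 5 lower and one under 0.01 0 in either direction, and leaving out 1 liver 0 to 3 higher and 0 to 1 lower. DESeq2 called 1212 genes higher and 906 lower over the whole table, against 305 and 262. Hepatocyte marker scaling called 38 higher and 13353 lower, so most of the 17032 tested genes passed as lower under it. Library size alone called 206 higher and 3041 lower, and reference gene scaling 609 and 203. With no filter, 644 of 28631 genes were called higher and 484 lower. Leaving out 1 liver called 0 to 324 genes of the whole table higher and 0 to 295 lower. Library size alone moved the median of all genes to -0.39 and that of the enzymes to 0.42.

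Over 15 alternatives, the log2 fold changes of the 42 enzymes gave 630 values, of which 499 kept direction and side of the threshold, 60 lost a call and 36 gained one with the same sign, and 35 changed sign. Among those 35, under hepatocyte marker scaling, Gstz1, Bckdhb, Mccc2 and Cdo1 also lost their call as higher, and Got2, Gpt2 and Hibch gained one as lower. Hepatocyte marker scaling lowers all genes together, and under it the values below 0 that TMM had above were Tat -0.28, Hgd -0.10, Gstz1 -0.19, Tdo2 -0.10, Kmo -0.32, Kynu -0.28, Acmsd -0.58, Sdsl -0.56, Gldc -0.40, Gcat -0.10, Got1 -0.24, Got2 -0.53, Gpt2 -0.87, Agxt2 -0.23, Bckdha -0.28, Bckdhb -0.25, Dbt -0.49, Ivd -0.15, Mccc1 -0.46, Mccc2 -0.11, Pcca -0.51, Pccb -0.42, Mut -0.60, Hibch -0.61, Aass -0.32, Ftcd -0.0047, Cth -0.087, Cbs -0.090 and Cdo1 -0.12. With library size alone Gpt2 was at -0.29, Mut at -0.019 and Hibch at -0.0092. Leaving out 1 liver gave -0.0052 to 1.07 for Acmsd, -0.053 to 0.20 for Gpt2, -0.031 to 0.74 for Got1 to Got2 and -0.012 to 0.43 for Cbs to Cth. The cause of these changes was not tested. The other 4 ratios kept their direction. Adding 5 counts in place of 0.5 changed no direction of a ratio. No paired analysis was possible because the mouse numbers of the groups share no value.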
